A study of Mus musculus with 12 samples.

Results

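Transcripts of 7 receptor genes were followed through sorted mouse T cells: Il1r1, the signalling receptor for IL-1; Il1rl1, the receptor for IL-33; Il18r1 and Il18rap, the paired chains of the IL-18 receptor; Il12rb1, the chain shared by the receptors for IL-12 and IL-23; Il23r, the chain specific to IL-23; and Il12rb2, the chain specific to IL-12. They were taken by gene name from the 33696 genes listed in the count matrices, and all 7 were found. Single-cell transcripts had been counted by 10x Genomics 3′ chemistry in γδ T cells sorted from the spleen, γδ T cells sorted from the thymus, and thymic precursors of the DN1 to DN3 stages, which carry neither CD4 nor CD8 and were sorted together. The donors were adult mice, either WT or carrying a germline knockout of Gfi1 (GFI1 KO), which encodes a zinc-finger repressor of transcription, on a C57BL6/J background. Each pool mixed WT and KO cells that carried different hashtag antibodies, and the split by hashtag gave 2 libraries labelled WT and 2 labelled KO in each of 3 compartments. Being germline, the knockout was present in every cell of the animal and not only in T cells. The number of mice behind each pool, and whether the compartments share mice, are not given in the sources used here.

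IL-1 and IL-18 act through related receptors that share the adaptor MyD88 and IRAK kinases and lead to NF-κB, with Il1rap as the accessory chain of the IL-1 and IL-33 receptors. IL-12 and IL-23 share a receptor chain and signal through JAK2 and TYK2, IL-12 mostly to STAT4 and IL-23 mostly to STAT3. Among γδ T cells, the γδT17 subset, which makes IL-17, is known to respond to IL-1 and IL-23, whereas γδT1 cells, which make interferon-γ and carry the IL-2 and IL-15 receptor chain Il2rb, are known to respond to IL-12 and IL-18. The Vγ6 chain, encoded by Trgv6, is carried by a γδT17 population that arises before birth.

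In the mouse genome Il1r1, Il1rl1, Il18r1 and Il18rap lie in one row of receptor genes, together with Il1r2 and Il1rl2, and Il23r and Il12rb2 are direct neighbours, while Il12rb1 lies elsewhere. The promoter windows of Il23r and Il12rb2 are shown because these neighbours moved in opposite directions with the label KO over all γδ T cells of each organ. This did not hold in DN1-DN3 cells or in splenic cells with Trgv6 transcripts. Each window runs from 250 bases before to 50 after an annotated start (RefSeq, build GRCm38.p6), both on the minus strand, Il23r at chr6:67491806-67492105 and Il12rb2 at chr6:67376139-67376438. Both were searched on both strands for AATCAC, a stretch of the known GFI1 motif, and neither holds it, so no letters are in capitals. Shorter stretches of the motif were not searched.
Il23r: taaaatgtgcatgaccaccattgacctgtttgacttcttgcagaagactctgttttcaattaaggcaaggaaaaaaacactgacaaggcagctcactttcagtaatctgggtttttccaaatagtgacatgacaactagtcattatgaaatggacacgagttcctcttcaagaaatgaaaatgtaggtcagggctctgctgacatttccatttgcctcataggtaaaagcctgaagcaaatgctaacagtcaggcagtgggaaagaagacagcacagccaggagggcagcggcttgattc
Il12rb2: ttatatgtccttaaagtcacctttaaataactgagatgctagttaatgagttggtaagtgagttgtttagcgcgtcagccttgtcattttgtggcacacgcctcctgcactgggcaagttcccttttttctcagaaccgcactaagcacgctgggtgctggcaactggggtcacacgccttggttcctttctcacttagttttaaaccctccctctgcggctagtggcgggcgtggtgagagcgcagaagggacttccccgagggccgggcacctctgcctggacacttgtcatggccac
AATCAC or its reverse complement stood in 10.4% of the 32851 mouse windows of this length and in 1 of the 10 windows of 6 of the receptor genes, a window of Il1rl1. These letters were chosen after the values had been seen, and they describe sequence only.

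The 12 libraries held 96911 cells after filtering, with 42091895 to 71663962 UMIs a library and a median of 4947 to 6853 UMIs per cell. WT and KO cells of one pool shared a droplet run and no cell barcode, and other pairs of libraries shared at most 34 barcodes, or 0.496% of the smaller library. The count of Gfi1 itself did not fall with the label KO: the log2 difference was 0.37 (edgeR adjusted p = 0.137) in spleen, 0.62 (adjusted p = 0.0251) in thymic γδ T cells and 0.57 (adjusted p = 0.0579) in DN1-DN3 cells. The tag counted is 3′, and the part of Gfi1 removed in this line is not given in the sources used here, so this count does not check the labels. Xist was at most 0.374 CPM (counts per 1000000 UMIs, the UMIs of a gene scaled to the total of its library) in the splenic libraries and 739 to 1600 CPM in the thymic ones, so sex and organ cannot be told apart in comparisons between spleen and thymus. Trdc, the constant gene of the δ chain, stood at 1233 to 2051 CPM in the γδ T libraries. The summed markers of γδT17 cells (Maf, Blk, Cxcr6 and Il17a) were 399.6 and 361 CPM against 4192 and 4291 CPM in spleen, 645 and 529.6 against 2827 and 3128 in thymic γδ T cells, and 63.1 and 60.5 against 785 and 319.9 in DN1-DN3 cells, each time WT before KO. Markers of other cell types differed by label as well: those of type 1 cells (Il2rb, Tbx21, Ifng, Klrd1 and Ccl5) summed to 2812 and 3063 against 350.1 and 291 CPM in spleen and to 32.8 and 27.4 against 239 and 142 CPM in DN1-DN3 cells, those of αβ T cells (Trac, Cd4, Cd8a and Cd8b1) to 251 and 199 against 59.98 and 65.2 CPM in spleen and to 27.3 and 31.3 against 164 and 71.96 CPM in DN1-DN3 cells. In spleen most of the type 1 sum in WT was Ccl5 (2131 and 2304 against 146 and 130 CPM). There Il2rb, Tbx21 and Klrd1 were lower with the label KO too, and Ifng overlapped. Splenic sums of DN1 and DN2, DN3 and B markers were higher with that label. This was mainly through Cd44 (96.7 and 83.0 against 552 and 518 CPM), Il2ra (25.3 and 21.4 against 169 and 158) and Cd79b (27.9 and 23.7 against 50.9 and 50.8). In DN1-DN3 cells the αβ T sum rose through Trac alone (18.8 and 20.7 against 154 and 65.6 CPM), while Cd4, Cd8a and Cd8b1 overlapped between the labels, each at or under 9.005 CPM. Of the mast cell and basophil markers, Cpa3 stood at 222 and 172 against 39.5 and 25.4 CPM in thymic γδ T cells, and Ms4a2, Mcpt8 and Fcer1a were at 0 in all 4 of those libraries. Those of NK cells and ILC1 summed to 133 and 157 against 43.6 and 41.6 CPM in spleen, mainly through Eomes, and to 8.01 and 6.26 against 33.2 and 18.5 CPM in DN1-DN3 cells. In thymic γδ T cells the ILC2 sum of 309.6 and 274 against 142 and 115 CPM was nearly all Gata3, and the plasmacytoid dendritic cell sum of 151 and 141 against 61.7 and 45.8 CPM was mostly Tcf4, with Siglech at or near 0. The erythroid sum, mostly of the haemoglobin genes Hba-a1 and Hbb-bs, was 30.1 and 25.8 against 117 and 50.2 CPM in spleen. The part of these cell types in the results was not tested. The first DN1-DN3 library labelled KO stood apart from the second. Separate cultures or animals behind the pools are not stated, so the p-values measure the spread between these libraries. That spread was estimated once per gene over all libraries of a fit, across the compartments.

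In thymic γδ T cells, 5 of the 7 receptor genes were higher and Il12rb2 was lower in the libraries labelled KO, with Il1r1, Il18r1, Il18rap and Il23r 12.1 to 22.4 times as high as in WT. In splenic γδ T cells Il1r1, Il12rb1, Il23r and Il18rap were higher and Il12rb2 was lower. In DN1-DN3 cells the same 5 genes as in the thymic γδ T cells were higher, and Il12rb2 was not called. By edgeR's quasi-likelihood test on UMIs summed per library (Benjamini-Hochberg adjusted p under 0.05), 5 of 7 were called in spleen, where 54.8% of all genes were called (28.6% higher, 26.1% lower). The test called 6 of 7 in thymic γδ T cells against 49.7% of all genes (26.1% higher, 23.7% lower), and 5 of 7 in DN1-DN3 cells against 23.0% (15.2% higher, 7.73% lower). Without the first KO-labelled DN1-DN3 library the same 5 genes stayed called there with smaller log2 differences, 2.36 for Il1r1, 2.52 for Il18r1, 1.88 for Il18rap, 1.94 for Il23r and 0.89 for Il12rb1 (3.56, 3.58, 2.87, 3.28 and 1.51 with it). In such sums, more cells of a type and more RNA per cell cannot be told apart.

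**Figure D1:**
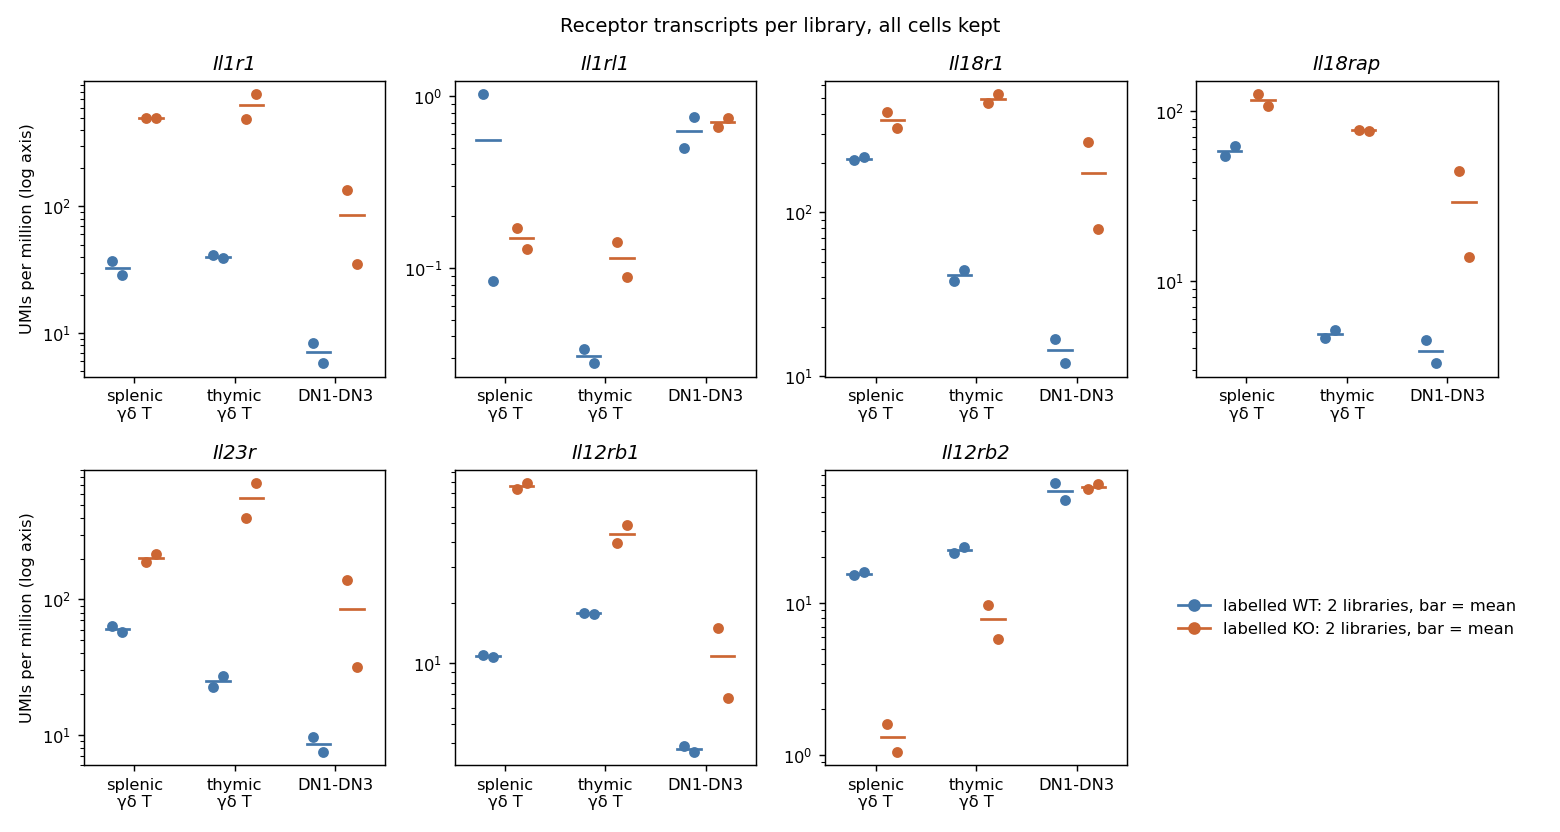
Level of the 7 receptor genes in each library, in CPM on a log axis, by compartment and genotype label; each point is 1 library and each bar the mean of 2. In spleen Il1r1 stands at 28.8 and 37.0 CPM with the label WT and at 492 and 499 CPM with the label KO, and Il12rb2 falls from 15.2 and 15.9 to 1.60 and 1.05 CPM.

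Il1r1 binds IL-1α and IL-1β and is the chain that starts signalling. It stood at 37.0 and 28.8 CPM in the splenic WT libraries and at 492 and 499 CPM in the KO-labelled ones, a log2 difference of 4.01 ± 0.52 (SE, n = 2 libraries a group, adjusted p = 0.000119), or 15.1-fold. Thymic γδ T cells gave 41.2 and 38.8 CPM against 487 and 761 CPM, a log2 difference of 4.09 ± 0.52 (adjusted p = 0.000142). Both organs thus started from similar WT levels and the WT and KO values did not overlap in either. DN1-DN3 cells held 8.40 and 5.79 CPM with the label WT against 135 and 35.1 CPM with the label KO (log2 3.56 ± 0.52, adjusted p = 0.00112), where the 2 KO-labelled libraries differed from each other more than in the other compartments. Across groups the mean level was highest in thymic KO γδ T cells (624 ± 194 CPM, SD) and splenic KO cells (496 ± 4.62), whose ranges overlapped. DN1-DN3 KO cells (85.2 ± 70.8), thymic WT γδ T cells (40.0 ± 1.68) and splenic WT cells (32.9 ± 5.82) followed. The DN1-DN3 KO range overlapped that of thymic WT and that of splenic WT cells. DN1-DN3 WT cells (7.10 ± 1.84) were lowest.

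Il1rap, the accessory chain that Il1r1 needs, was not a member of the set and moved little. It stood at 26.3 and 26.9 CPM (WT) and 27.1 and 27.6 CPM (KO) in spleen, and at 16.5 and 16.8 against 25.3 and 24.2 CPM in thymic γδ T cells, where the log2 difference of 0.69 was called (adjusted p = 0.000969). In DN1-DN3 cells the values overlapped, 18.4 and 13.9 CPM against 19.7 and 14.6 CPM. Over all cells, the receptor chain for IL-1 was thus far higher in the KO-labelled γδ T libraries and its partner was 1.48 times as high at most. In thymic γδ T cells with a Trgv6 UMI the partner was 1.58 times as high.

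Il1rl1, the IL-33 receptor known from type 2 lymphocytes and mast cells, was close to absent. Its UMIs numbered 43 and 5 in the splenic WT libraries and 8 and 9 in the KO-labelled ones, 2 and 2 against 6 and 4 in thymic γδ T cells, and 31 and 47 against 31 and 42 in DN1-DN3 cells. The first splenic WT library stood apart with 43 UMIs in 22 of 7820 cells (1.02 CPM, 95% Poisson interval 0.739 to 1.38, which covers counting error only). None of the 3 comparisons called it, and the groups overlapped in spleen and DN1-DN3 cells. Leaving out the second splenic WT library, which held 5 of its UMIs, called it lower in spleen (log2 −2.68, edgeR adjusted p = 0.00126) and higher in thymic γδ T cells (1.94, adjusted p = 0.0338). Trgv6-positive splenic cells held 0 Il1rl1 UMIs in 3 of the 4 libraries and 8 in the second KO-labelled one.

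Il18r1, the chain that binds IL-18, stood higher in spleen than in the thymic compartments among the WT libraries. Its splenic level was 208 and 219 CPM in the WT libraries against 411 and 327 CPM in the KO-labelled ones. The groups did not overlap, but the log2 difference of 0.89 ± 0.40 missed the threshold (edgeR adjusted p = 0.0885). It passed with the pool as a replicate block (0.87, adjusted p = 0.0270) and in a fit of the 4 splenic libraries alone (0.84, adjusted p = 0.00117). It also passed without either DN1-DN3 library labelled KO (0.85 for both). In 16 of 20 alternatives it stayed uncalled, and why the call varied was not tested. Among thymic γδ T cells the WT libraries held 38.0 and 44.1 CPM and the KO-labelled ones 468 and 527 CPM, a log2 difference of 3.72 ± 0.45 (adjusted p = 0.000103). DN1-DN3 cells went from 16.9 and 11.9 CPM to 271 and 79.5 CPM (3.58 ± 0.45, adjusted p = 0.000516). Thymic KO cells were thus highest (498 CPM), then splenic KO (369) and splenic WT cells (214), with DN1-DN3 KO cells (175 ± 135) overlapping the latter, and thymic WT (41.1) and DN1-DN3 WT cells (14.4) lowest.

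Il18rap, the signalling partner of Il18r1, stood at 53.9 and 62.4 CPM in splenic WT and at 125 and 107 CPM in splenic KO-labelled libraries, a log2 difference of 1.09 ± 0.37 (adjusted p = 0.0287). That call was lost without any 1 of the 4 splenic libraries (log2 0.93 to 1.22, adjusted p = 0.0517 to 0.149), without the second thymic γδ T library labelled WT or the first labelled KO (adjusted p = 0.0516 and 0.0512), and when genes of low counts were kept (adjusted p = 0.115). In the thymus it went from 4.63 and 5.12 CPM to 77.2 and 76.4 CPM (4.10 ± 0.42, adjusted p = 4.3e-05), and in DN1-DN3 cells from 4.48 and 3.27 to 44.2 and 13.8 CPM (2.87 ± 0.41, adjusted p = 0.00105). Both chains of the IL-18 receptor were therefore already present in splenic WT cells, and their KO minus WT difference was smaller in spleen than in thymic γδ T cells (interaction test).

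Il23r, the chain specific to IL-23, was at 64.1 and 57.6 CPM in splenic WT libraries and 187 and 215 CPM in KO-labelled ones, 3.30-fold higher (log2 1.82 ± 0.51, adjusted p = 0.0131). This call was lost without either splenic WT library (adjusted p = 0.0602 and 0.0772) and when genes of low counts were kept (adjusted p = 0.0712). In the thymus the change was larger, from 22.6 and 27.5 CPM to 401 and 719 CPM, or 22.4-fold (log2 4.62 ± 0.58, adjusted p = 0.000135). DN1-DN3 cells moved from 9.61 and 7.51 CPM to 138 and 31.8 CPM (3.28 ± 0.56, adjusted p = 0.00257). The order of the groups was thymic KO (560 ± 225 CPM), splenic KO (201), DN1-DN3 KO (84.9 ± 75.1) overlapping splenic WT (60.9), thymic WT (25.04) and DN1-DN3 WT cells (8.56).

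Il12rb1, the chain that both IL-12 and IL-23 use, had a higher KO-labelled level in spleen than in the thymus. It rose from 11.0 and 10.7 CPM to 73.6 and 78.7 CPM in spleen (log2 2.91 ± 0.27, adjusted p = 1.21e-05), from 17.8 and 17.6 to 39.6 and 48.6 CPM in thymic γδ T cells (1.44 ± 0.25, adjusted p = 0.00101), and from 3.88 and 3.61 to 15.02 and 6.74 CPM in DN1-DN3 cells (1.51 ± 0.27, adjusted p = 0.00359). Il18rap shared that order between the organs, 116 CPM in splenic KO against 76.8 CPM in thymic KO cells on the mean.

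Il12rb2, the chain specific to IL-12, went the other way. It fell from 15.2 and 15.9 CPM to 1.60 and 1.05 CPM in spleen, 11.7-fold lower (log2 −3.49 ± 0.25, adjusted p = 2.86e-06), and from 21.5 and 23.3 CPM to 9.80 and 5.84 CPM in thymic γδ T cells, 2.86-fold lower (−1.41 ± 0.21, adjusted p = 0.000456). In DN1-DN3 cells, where the gene was at its highest, the genotypes overlapped at 61.6 and 47.5 CPM against 56.7 and 60.4 CPM (0.11 ± 0.20, 95% interval −0.34 to 0.56, adjusted p = 0.731). Among DN3-type cells of these libraries (at least 1 UMI of Ptcra and of Rag1) Il12rb2 stood higher with the label KO. The values were 43.9 and 37.1 CPM in WT against 72.4 and 64.2 CPM, and this was not tested. Thus Il12rb2 was lower in KO-labelled γδ T cells of both organs while its neighbour Il23r was higher, and in DN1-DN3 cells only Il23r was called.

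The differences between compartments were tested as interactions in the same fit, where 29.5% of genes were called for spleen against thymic γδ T cells. The log2 KO minus WT difference was smaller in spleen for Il18r1 (−2.84 ± 0.58, adjusted p = 0.0057), Il18rap (−3.01 ± 0.54, adjusted p = 0.0029) and Il23r (−2.80 ± 0.72, adjusted p = 0.0170). Il12rb2 fell further in spleen (−2.08 ± 0.33, adjusted p = 0.0015) and Il12rb1 rose further there (1.47 ± 0.35, adjusted p = 0.0126). For Il1r1 the interaction was −0.08 (95% interval −1.54 to 1.37, adjusted p = 0.944), an interval too wide to call the effects alike. The Il23r interaction was lost without the first splenic KO-labelled, the first thymic WT or the second thymic KO-labelled library (adjusted p = 0.0547, 0.0702 and 0.0674) and when genes of low counts were kept (adjusted p = 0.0827), and that of Il12rb1 without the first thymic KO-labelled one (adjusted p = 0.0605). Between thymic γδ T and DN1-DN3 cells, where 21.8% of genes were called, Il12rb2 differed (−1.51 ± 0.29, adjusted p = 0.0060) and the other 6 were not called. With the pool as a replicate block Il18rap was called there too (1.37, adjusted p = 0.0423). Without the first DN1-DN3 library labelled KO, Il1r1 (1.67), Il18r1 (1.14), Il18rap (2.15) and Il23r (2.60) were also called there, with adjusted p between 7.71e-05 and 0.0175.

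**Figure D2:**
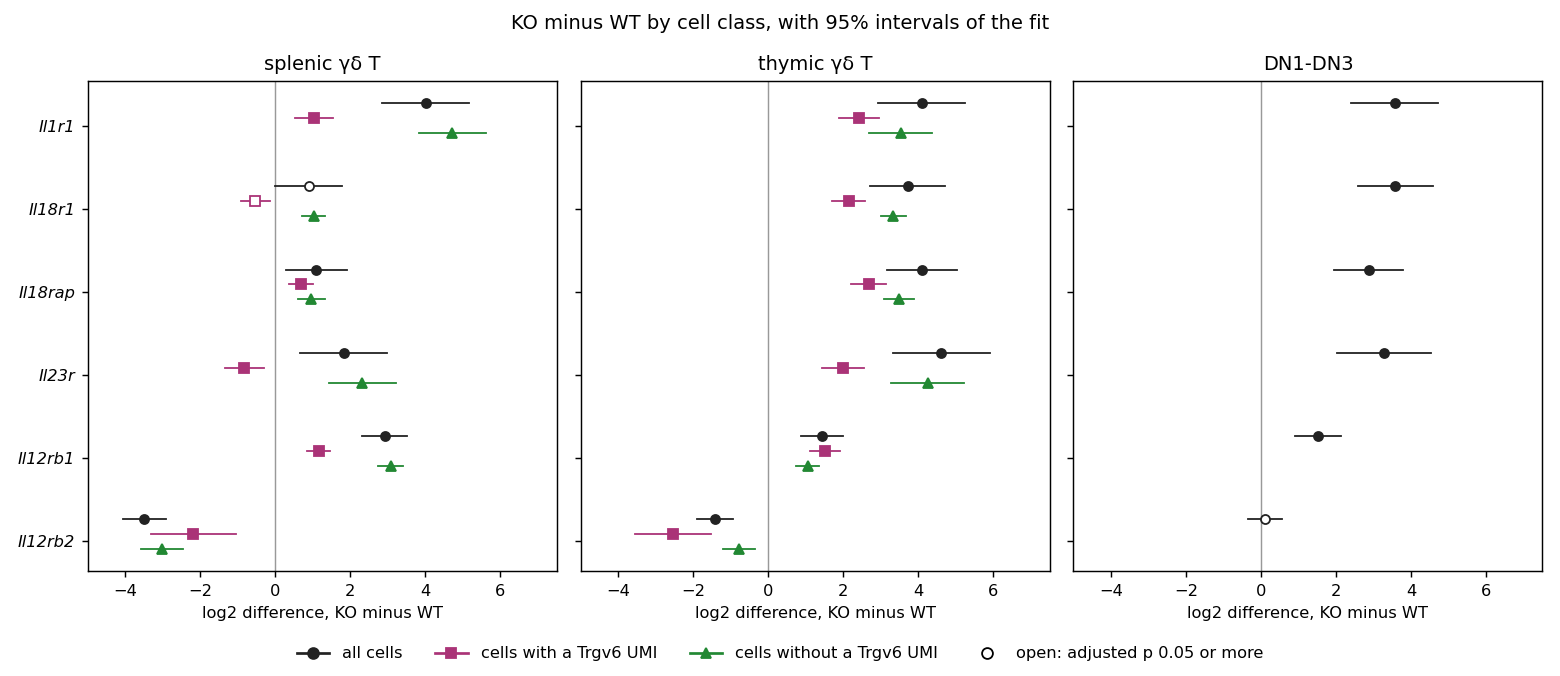
Log2 difference, KO minus WT, of each receptor gene other than Il1rl1 in all cells of each compartment and, for the γδ T libraries, in cells with and without a Trgv6 UMI; points are edgeR estimates, bars their 95% intervals, open symbols mark an adjusted p of 0.05 or more, and the line at 0 marks equal levels. In spleen Il23r lies at 1.82 over all cells but at −0.83 within Trgv6-positive cells.

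The rule for these genes asks for their levels in cells with at least 1 Trgv6 UMI. They made up 5.15% and 4.73% of splenic WT and 63.2% and 64.5% of splenic KO-labelled cells, and 2.26% and 2.51% against 46.3% and 51.5% of thymic γδ T cells. DN1-DN3 libraries held 30 and 24 of them in WT and 91 and 85 with the label KO, with 20 and 0 Il1r1 UMIs against 137 and 60, and they were not tested. Reads of Trgv6 can be shared out among similar Trgv segments, and Trgv6 is sparse in 3′ data, so cells without a Trgv6 UMI may still carry the chain.

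Within Trgv6-positive splenic cells Il1r1, Il18rap and Il12rb1 were higher and Il23r and Il12rb2 lower in the libraries labelled KO. Il1r1 rose from 298 and 217 CPM to 521 and 517 CPM (log2 1.03 ± 0.22, adjusted p = 0.00965), Il18rap from 79.6 and 72.8 to 131 and 110 CPM (0.68 ± 0.15, adjusted p = 0.00571) and Il12rb1 from 39.6 and 31.1 to 74.4 and 79.7 CPM (1.16 ± 0.14, adjusted p = 0.000114). Il23r fell, from 384 and 355 CPM to 192 and 219 CPM (−0.83 ± 0.22, adjusted p = 0.0291), so that the gene was higher over all splenic cells and lower within these. Il18r1 stood at 557 and 515 CPM against 410 and 322 CPM, without overlap (−0.53 ± 0.18, adjusted p = 0.0553), and was called with the pool as a block (−0.54, adjusted p = 0.000888), by DESeq2 (−0.55, adjusted p = 0.0341), with RLE scaling (−0.55, adjusted p = 0.0486) and when genes of low counts were kept (−0.48, adjusted p = 0.000463). Il12rb2 was low, with 5 and 26 UMIs against 39 and 38, or 1.84 and 7.04 CPM against 1.24 and 0.791 CPM. Its call (−2.18 ± 0.52, adjusted p = 0.00914) was lost without the second WT library (−0.88, adjusted p = 0.527), without the second KO-labelled one (−1.84, adjusted p = 0.0636) and when 2 Trgv6 UMIs were asked of a cell (−1.22, adjusted p = 0.359).

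These 5 calls of 6 genes tested compare with 25.2% of all genes in the Trgv6-positive splenic cells (12.8% higher, 12.4% lower), and Il1rl1 was too low to be tested. The WT sums here hold 403 and 528 cells, against 4939 and 7529 KO-labelled cells. The fall of Il23r was not called without any 1 of the 4 splenic libraries (log2 −0.72 to −0.92, adjusted p = 0.0845 to 0.214), and Il1r1 and Il18rap were lost without the second WT library (0.79 and 0.58, adjusted p = 0.0962 and 0.0876) or the first KO-labelled one (0.95 and 0.48, adjusted p = 0.0519 and 0.0677). Il12rb1 kept its call under every alternative run. With at least 2 Trgv6 UMIs asked of a cell, Il18r1 was called lower (−0.74, adjusted p = 0.00239) and Il23r fell further (−1.19, adjusted p = 0.000166). Il1r1 there went from 337 and 286 to 556 and 536 CPM. Il12rb1 went from 41.2 and 43.4 to 75.2 and 79.4 CPM. Both rises were smaller in ratio than with 1 Trgv6 UMI asked. That of Il18rap was nearly unchanged (85.8 and 78.6 to 142 and 113 CPM).

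In Trgv6-positive thymic γδ T cells all 6 genes tested were called, where 39.5% of all genes were (20.1% higher, 19.4% lower). Il1r1 rose from 136 and 201 CPM to 747 and 934 CPM (log2 2.42 ± 0.23, adjusted p = 6.88e-05), and Il23r from 159 and 241 CPM to 605 and 879 CPM (1.99 ± 0.24, adjusted p = 0.000302). Il18r1 went from 119 and 180 to 604 and 632 CPM (2.14 ± 0.20) and Il18rap from 14.0 and 20.6 to 117 and 93.6 CPM (2.68 ± 0.21). Il12rb1 rose from 19.4 and 20.1 to 50.4 and 54.9 CPM (1.52 ± 0.18), and Il12rb2 fell from 16.7 and 13.6 to 2.88 and 1.98 CPM (−2.54 ± 0.47, adjusted p = 0.00105). The WT sums held 154 and 200 cells. With at least 2 Trgv6 UMIs asked of a cell, which left 39 and 41 WT cells, all 6 stayed called and the rises were smaller, at log2 1.72 for Il1r1 (239 and 337 against 784 and 975.4 CPM), 1.34 for Il23r, 1.58 for Il18r1, 1.98 for Il18rap and 1.05 for Il12rb1. Thymic WT cells with a Trgv6 UMI held about as much Il12rb1 as those without one (17.8 and 17.5 CPM), and whether the gate takes one class of cells in both genotypes was not tested.

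The thymic and splenic changes in Trgv6-positive cells were compared by an interaction added after the values had been seen, where 13.7% of genes were called. It was −2.83 ± 0.33 for Il23r (adjusted p = 0.0014), −2.67 ± 0.26 for Il18r1 (adjusted p = 0.00036), −1.99 ± 0.27 for Il18rap (adjusted p = 0.00080) and −1.39 ± 0.32 for Il1r1 (adjusted p = 0.0226), all lower in spleen. The last was lost without the first splenic WT, either splenic KO-labelled or the first thymic WT library (log2 −1.12 to −1.45, adjusted p = 0.0534 to 0.0698). Those of Il12rb1 (−0.36, 95% interval −0.88 to 0.15) and Il12rb2 (0.36, −1.14 to 1.85) were not called.

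**Figure D3:**
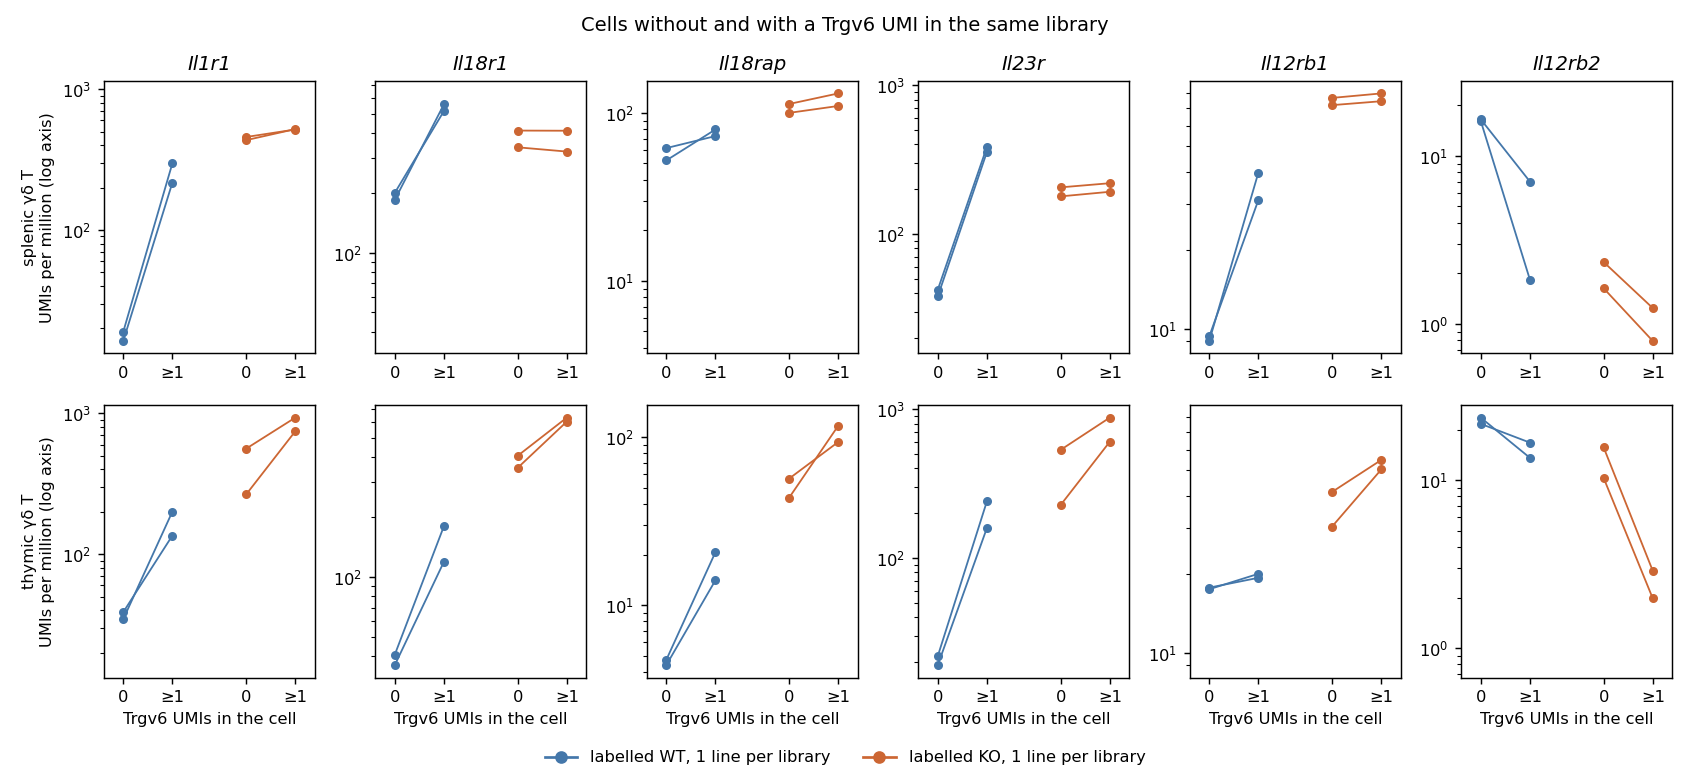
Level of 6 receptor genes in cells with at least 1 Trgv6 UMI and in cells without one, in CPM on a log axis, in each splenic and thymic γδ T library. In spleen Il23r stands at 384 and 355 against 42.0 and 37.9 CPM in WT, and at 192 and 219 against 179 and 205 CPM in the libraries labelled KO.

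Set against the other cells of the same library, Trgv6-positive cells stood apart in splenic WT and not in splenic KO-labelled libraries. In the latter few genes of any kind were called, so this was not particular to the receptor genes. With a Trgv6 UMI in 63.2% and 64.5% of KO-labelled splenic cells, the others may carry the chain too, which was not tested. In splenic WT, 5 of the 7 genes were called (27.7% of all genes): Il1r1 was higher by a log2 of 3.86 ± 0.26 (adjusted p = 0.0003), Il23r by 3.21 ± 0.17, Il12rb1 by 1.93 ± 0.14 and Il18r1 by 1.49 ± 0.09, and Il12rb2 was lower (−1.78 ± 0.27, adjusted p = 0.0002). The value of Il12rb2 rested on 5 and 26 UMIs in the Trgv6-positive cells, and was −1.28 without the first and −3.09 without the second splenic WT library. In splenic KO-labelled libraries edgeR called 0 of the 7, with 0.268% of all genes called, and 1 passed an unadjusted p under 0.05: Il12rb2 (log2 −0.98, edgeR adjusted p = 0.357), which was called without the filter on low counts. There Il23r was at 192 and 219 CPM in Trgv6-positive cells and at 179 and 205 CPM in the others, and Il12rb1 at 74.4 and 79.7 against 71.9 and 76.6 CPM. The difference between these contrasts was itself called for Il1r1 (−3.65 ± 0.34, adjusted p = 0.0019), Il23r (−3.12 ± 0.22, adjusted p = 0.00013), Il12rb1 (−1.88 ± 0.16) and Il18r1 (−1.53 ± 0.13), with 16.6% of all genes called.

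In the thymus the contrast was called for 3 genes in WT and for 6 with the label KO. The WT libraries called 3 of 7 (0.941% of all genes): Il23r was higher in Trgv6-positive cells by a log2 of 3.27 ± 0.19, Il18r1 by 1.95 ± 0.11 and Il1r1 by 2.20 ± 0.28 (adjusted p = 0.0458). The last call was lost without the filter on low counts and without the second thymic WT library or any 1 splenic library (adjusted p up to 0.292). Not called there were Il18rap (1.94 ± 0.44, edgeR adjusted p = 0.148, called by DESeq2), Il12rb2 (−0.60, adjusted p = 0.403) and Il12rb1 (0.16, adjusted p = 0.823). The KO-labelled libraries called 6 of 7 (36.8% of all genes), with Il1r1 higher by 1.17, Il18rap by 1.13, Il23r by 1.12, Il18r1 by 0.76 and Il12rb1 by 0.62, and Il12rb2 lower by 2.36 (−2.36 ± 0.19). The contrast was smaller with the label KO for Il23r (−2.15 ± 0.23, adjusted p = 0.0020) and Il18r1 (−1.19 ± 0.14, adjusted p = 0.00019) and more negative for Il12rb2 (−1.76 ± 0.35, adjusted p = 0.0066), where 6.70% of genes were called.

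Cells without a Trgv6 UMI also differed by genotype label. In spleen Il1r1 went from 18.9 and 16.3 CPM to 435 and 458 CPM (log2 4.72 ± 0.37), Il23r from 42.0 and 37.9 to 179 and 205 CPM (2.32 ± 0.38, adjusted p = 0.0018), and Il12rb2 from 16.2 and 16.5 to 2.33 and 1.63 CPM (−3.02 ± 0.24), and 6 of 7 genes were called against 58.3% of all genes. Thymic γδ T cells without a Trgv6 UMI called 6 of 7 against 43.6%, with Il23r from 19.0 and 21.9 to 227 and 534 CPM and Il12rb2 from 21.6 and 23.5 to 15.7 and 10.3 CPM (−0.77 ± 0.19, adjusted p = 0.0115). That Il12rb2 call was lost without the second thymic WT library (−0.71, adjusted p = 0.0778).

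Shares of cells with a UMI were read after each cell had been thinned to 2000 UMIs, because cells differ in depth. Shallower cells were left out: 595 of 7820 and 1190 of 11160 cells in the splenic WT libraries, 123 of 7815 in the first splenic KO-labelled one and fewer in the second than in either WT library, and 468 to 627 cells in each library of thymic γδ T or DN1-DN3 cells. Il1r1 was found in 4.97% and 4.11% of splenic WT and 57.7% and 58.9% of KO-labelled cells (unthinned 8.39% and 7.20% against 84.2% and 86.3%), and Il23r in 7.38% and 6.23% against 25.4% and 30.3% (unthinned 10.2% and 8.64% against 44.6% and 53.1%). For thymic γδ T cells the thinned share of Il23r was 2.74% and 4.03% in WT and 36.7% and 60.9% with the label KO, and the KO-labelled libraries again differed from each other. In every compartment 5 genes (Il1r1, Il18r1, Il18rap, Il23r and Il12rb1) had a higher share in both KO-labelled libraries than in both WT ones. How many of all genes separated in this way was not counted, so this describes these 5 genes only. The thinned share of Il12rb2 went from 2.52% and 2.65% to 0.325% and 0.22% in spleen, and in DN1-DN3 cells it overlapped at 10.0% and 7.49% against 9.70% and 11.1%.

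Within Trgv6-positive splenic cells the thinned share followed the levels, with Il1r1 in 39.7% and 29.7% against 60.7% and 60.1% of cells and Il23r in 41.9% and 37.1% against 26.0% and 31.2%. For comparison, DN3-type cells (at least 1 UMI of Ptcra and of Rag1) of the DN1-DN3 libraries gave a thinned Il1r1 share of 0.222% and 0.113% in WT and 2.16% and 0.588% with the label KO, against 1.10% and 0.971%, and 17.4% and 5.98%, over all cells of those libraries. Their Il23r share was 0.222% and 0.151% against 2.29% and 0.623%. The DN3-type cells had a median depth of 6343 to 7153 UMIs. The γδ T pools were other droplet runs. The thymic ones held 35 and 101 WT and 12 and 12 KO-labelled DN3-type cells. Their median depth was 26593 and 28218 UMIs in WT and 20607 and 14241 with the label KO. The splenic pools held 0, so DN3-type cells gave no background for the splenic shares. B-type cells (UMIs of Cd79a and of Cd79b) were few in spleen, 13 and 4 in WT and 3 and 8 with the label KO. An unthinned Il1r1 UMI was found in 1 and 0 of these in WT and in 2 and 8 with the label KO. Whether such cells lack the gene was not tested. In the thymic WT DN3-type cells Il1r1 stood at 3.17 and 4.48 CPM, against 41.2 and 38.8 CPM over all cells. Of these DN3-type cells 8.57% and 8.91% held an unthinned UMI of it. Il23r stood there at 1.06 and 2.24 CPM, against 22.6 and 27.5 CPM over all cells. In the thymic KO-labelled DN3-type cells Il1r1 stood at 27.4 and 43.1 CPM, against 487 and 761 CPM over all cells, and Il23r at 11.7 and 67.04 CPM, against 401 and 719 CPM, each on 3 to 14 UMIs. For Il12rb2 DN3-type cells are no background, since 24.3% and 19.6% of WT and 38.1% and 35.1% of KO-labelled DN3-type cells held an unthinned UMI of it. WT and KO cells of a pool shared their free RNA, and its part in the low WT shares was not tested.

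Partner genes were also followed in single cells, as a description over cells that share a library and its depth. In splenic WT libraries Il23r was found in 57.4% and 53.4% of cells with an Il1r1 UMI and in 4.76% and 4.21% of cells without one. With the label KO those shares were 29.0% and 32.9% against 20.4% and 26.5%, so in WT spleen an Il23r UMI was far more frequent in cells with an Il1r1 UMI than in cells without one, and the gap was narrow in the KO-labelled spleen. In thymic γδ T cells the shares were 21.9% and 26.5% against 1.29% and 2.30% in WT, and 57.2% and 73.6% against 16.1% and 35.2% with the label KO. DN1-DN3 cells kept the tie in both genotypes, 54.8% and 58.2% against 0.412% and 0.468% in WT and 65.8% and 54.2% against 6.62% and 2.22% with the label KO.

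**Figure D4:**
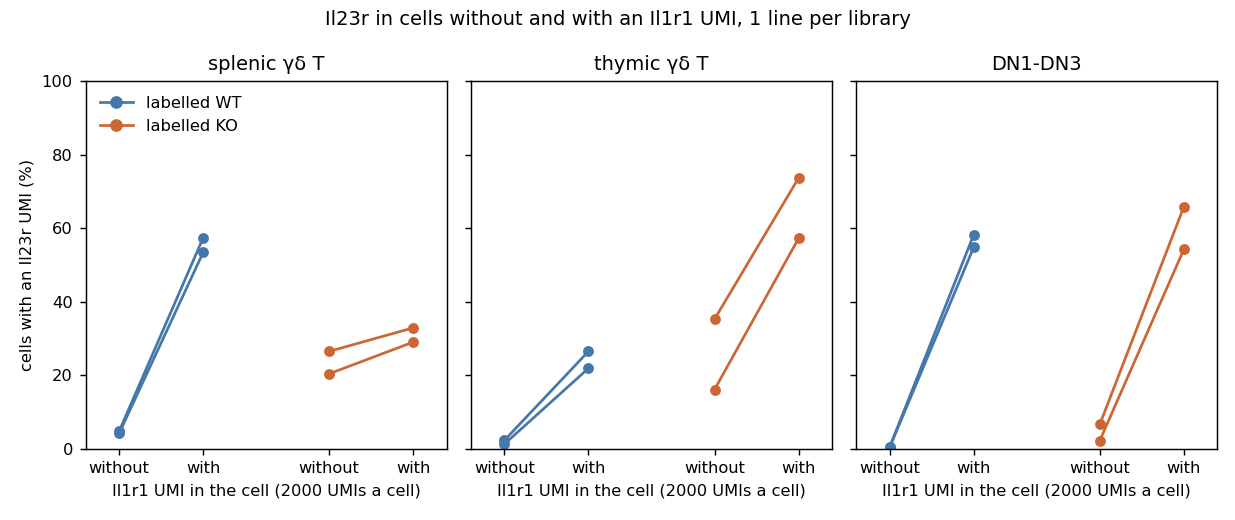
Share of cells with an Il23r UMI among cells with and without an Il1r1 UMI, in percent, after thinning to 2000 UMIs per cell, for each library. The gap is wide in splenic WT libraries (57.4% and 53.4% against 4.76% and 4.21%) and narrow in splenic KO-labelled ones (29.0% and 32.9% against 20.4% and 26.5%).

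The chains of one receptor were followed in the same way. Il18rap was found in 14.9% and 15.8% of splenic WT cells with an Il18r1 UMI and in 5.73% and 7.46% of those without, and in 21.3% and 17.3% against 19.1% and 18.9% with the label KO. Relative to the share without an Il18r1 UMI the gap was wider in WT cells of the thymus, with 5.48% and 7.51% against 0.811% and 0.81% in thymic γδ T cells and 18.9% and 16.3% against 0.687% and 0.459% in DN1-DN3 cells. In splenic WT Il23r was found in 36.7% and 21.2% of cells with an Il12rb1 UMI against 6.80% and 5.91% of those without, and in the KO-labelled spleen in 28.1% and 31.5% against 24.96% and 30.1%. For Il12rb2 the splenic WT shares were 1.44% and 3.85% with an Il12rb1 UMI against 2.54% and 2.62% without, on 2 of 139 and 8 of 208 cells that pointed opposite ways, too few to show a tie or its absence. At this depth a missing UMI does not mean a missing transcript.

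Genes of the same pathways were counted as lists, to be read against the 54.8% (spleen), 49.7% (thymic γδ T) and 23.0% (DN1-DN3) of all genes called. In spleen the called shares of the lists of IL-1 family signalling (36.4%), IL-12 and IL-23 signalling (60.0%), co-receptors and decoys (57.1%) and lineage genes (53.8%) were below or near that of all genes, and they are given as a description. Of 22 genes of IL-1 family signalling, all tested, 4 were higher and 4 lower in KO-labelled spleen (median log2 0.10, all genes 0.00), 12 higher and 2 lower in thymic γδ T cells (median 0.31), and 10 higher and 1 lower in DN1-DN3 cells (median 0.17). Irak3, an IRAK family member that dampens signalling, rose from 6.75 and 5.17 CPM to 38.1 and 37.2 CPM in spleen (log2 2.76 ± 0.40, adjusted p = 0.000264) and from 5.07 and 5.47 to 53.6 and 60.0 CPM in thymic γδ T cells (3.55 ± 0.41). The adaptor gene Myd88 was higher in both (1.15 ± 0.11 and 1.28 ± 0.11), as was Tab2, a partner of the kinase TAK1 (0.88 ± 0.16 and 1.48 ± 0.16). Ikbkb, a kinase upstream of NF-κB, was lower in spleen (102 and 122 to 50.2 and 60.2 CPM, −0.92 ± 0.11). In DN1-DN3 cells Irak2, Nfkbiz, Rel and Nfkbia were higher (2.08, 1.29, 1.06 and 0.96).

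Of 5 genes of IL-12 and IL-23 signalling, 3 were lower and 0 higher in KO-labelled spleen (median log2 −0.77): Stat4, which carries the IL-12 signal, fell from 447 and 507 CPM to 190 and 169 CPM (−1.31 ± 0.15, adjusted p = 4.83e-05), Jak2 from 117 and 125 to 47.0 and 53.4 CPM (−1.18 ± 0.16) and Jak1 from 782 and 867 to 452 and 454 CPM (−0.77 ± 0.11). Thymic γδ T cells had 2 higher and 1 lower (median 0.095), with Stat4 lower (192 and 175 to 107 and 78.9 CPM, −0.87 ± 0.15) and Stat3, which carries the IL-23 signal, higher (129 and 127 to 159.8 and 196 CPM, 0.60 ± 0.13), as was the kinase gene Tyk2 (0.51 ± 0.11). DN1-DN3 cells had 2 higher, Tyk2 (0.52) and Jak1 (0.42), and 0 lower (median 0.42). The list also holds Jak1, a kinase used by other cytokine receptors and not named above for these ones, and its median was the value of Jak1 in each of the 3 compartments. Stat4 was lower in both compartments in which Il12rb2 was lower.

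Of 7 co-receptors and decoys tested of 8, 2 were higher and 2 lower in spleen, 4 higher and 1 lower in thymic γδ T cells, and 3 higher and 0 lower in DN1-DN3 cells. Il6st, the gp130 chain of the IL-6 receptor family, fell from 117 and 123 CPM to 5.34 and 4.79 CPM in spleen (log2 −4.47 ± 0.15, adjusted p = 3.43e-08) and from 105 and 90.7 to 33.9 and 26.1 CPM in thymic γδ T cells (−1.59 ± 0.13). Sigirr, which dampens IL-1 family receptors, was higher in all 3 compartments (0.64, 0.92 and 0.68), and Il27ra, the IL-27 receptor chain, was higher in the thymus (1.20) and in DN1-DN3 cells (0.86). Only 2 of 8 ligand genes could be tested, of which 0 were higher and 1 lower in spleen and in thymic γδ T cells and 1 went each way in DN1-DN3 cells. Within the row of receptor genes, Il1r2, the decoy receptor for IL-1, stayed at or under 0.940 CPM in every library and was called higher at that low level in spleen (0.0713 and 0.0504 against 0.940 and 0.791 CPM, 3.91 ± 0.55, adjusted p = 0.00018) and in thymic γδ T cells (2.67 ± 0.52, adjusted p = 0.00184). Il1rl2 was lower in spleen (3.87 and 4.20 to 1.47 and 1.38 CPM, −1.41 ± 0.29, adjusted p = 0.00227) while Il1r1 and Il18rap of the same row were higher.

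Of the lineage regulators and outputs, 13 tested of 14, 5 were higher and 2 lower in spleen (median log2 0.19), 7 and 2 in thymic γδ T cells (1.26), and 11 and 0 in DN1-DN3 cells (2.29). In spleen Maf, a transcription factor of γδT17 cells, rose from 119.98 and 98.7 to 1365 and 1425 CPM (3.77 ± 0.29), Il17a from 0.546 and 0.907 to 26.3 and 43.0 CPM (5.62 ± 0.49) and Csf2, which encodes GM-CSF, from 3.54 and 3.49 to 43.4 and 32.8 CPM (3.53 ± 0.39), and Eomes, a regulator of type 1 programs, fell from 61.5 and 80.5 to 3.14 and 4.68 CPM (−4.08 ± 0.35). In thymic γδ T cells Il17a rose from 0.916 and 1.19 to 95.7 and 93.4 CPM. The Eomes level thus fell beside that of Il12rb2 in spleen.

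The genes whose log2 level followed each receptor gene most closely over the 12 libraries were searched among 9884 genes, as a description in which libraries of a group share their origin. Il1r1 was followed most closely by Slc22a15 and Il17re (Pearson r = 0.994 for both) and by Irak3 (0.991). Il18r1 went with Cd72 (0.987) and Gpr183 (0.986), and Il18rap with Slco3a1 (0.990) and Sntb1 (0.989). Il23r went with Mapkapk3 (0.991) and Xkr6 (0.987), Il12rb1 with Tram1 (0.995), Prkar1a and Blk (0.988 for both), and Il12rb2 with Epcam and Snx30 (0.995 for both).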

How the data were processed

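UMIs had been counted per gene and cell in 12 demultiplexed libraries with Cell Ranger 8.0.1 on GRCm39, per the submitters' processing notes. The deposited matrices hold raw counts without normalization, and the authors had done the cell calling and the hashtag split before deposit. Genotype was read from the library names that the labels pair with each tag. The study's limits of 500 UMIs, 200 genes and 20% mitochondrial UMIs per cell were applied (96911 of 97404 barcodes). Doublets beyond those the hashtags showed were not removed. Ribosomal, mitochondrial and Gm-numbered genes (9548) were left out of the tests. UMIs were summed per library and gate, with at least 20 cells a sum, and compared by edgeR 4.0.16 (R 4.3.3), with the quasi-likelihood F test, TMM scaling and the default filter on low counts, two-sided, with Benjamini-Hochberg adjustment over all genes tested (14911 for all cells). The 12 libraries entered 1 fit, and the splenic and thymic γδ T libraries 1 fit for Trgv6-positive cells. CPM values are UMIs relative to all UMIs of the library or gate, and the study's test over cells was not used.

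WT and KO cells of a pool shared a droplet run, so the pool number pairs them. The correlation of the pools' deviations between WT and KO libraries was 0.41 in spleen, 0.062 in thymic γδ T and 0.29 in DN1-DN3 cells. The receptor genes were named by the request, the pathway lists and gates were set by name (list genes with values: called, a mean of at least 5 CPM, at most 4 a list by size of change), and all were chosen with earlier results of these data known. Some planned gates and list genes are not reported here. An exact permutation test of 2 libraries against 2 cannot go below p = 0.33, so shares of cells were described without a test. Poisson and binomial intervals cover counting error only. The standard errors of the edgeR fits rest on the spread between libraries, estimated per gene over all libraries of a fit. They are thus not the spread of only the WT and KO-labelled libraries of the compartment compared. Alternatives were DESeq2 1.42.0, RLE scaling, no filter on low counts, no cell or gene filter, the pool as a block, other gates, other thinning depths and leaving out each library, and the removal of B-type cells (with UMIs of Cd79a and Cd79b) was added after the data were seen. Tables and figures were made with pandas 2.3.3, numpy 2.4.6, scipy 1.17.1 and matplotlib 3.10.9 in Python 3.11.15.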

Additional observations from a re-analysis of the deposited data

Results flagged for a closer look

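A difference between compartments in the KO minus WT effect, tested as an interaction by edgeR, marked 10 results for a closer look. Over all cells, spleen minus thymic γδ T cells, these were Il18r1 (log2 −2.84), Il18rap (−3.01), Il12rb2 (−2.08), Il23r (−2.80) and Il12rb1 (1.47). For thymic γδ T minus DN1-DN3 cells it was Il12rb2 (−1.51). In Trgv6-positive cells, spleen minus thymus, they were Il1r1 (−1.39), Il18r1 (−2.67), Il18rap (−1.99) and Il23r (−2.83). Spleen and thymus also differed in Xist, and the part of sex in these differences cannot be told apart from that of the organ.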

How the results depend on the processing

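Of 1266 alternative values for single genes other than Il1rl1, 1194 kept their direction and their side of the threshold, 37 fell short of it, 24 newly passed it and 11 changed sign, none of these 11 in a called difference. Of 7 receptor genes, those called went from 5 to 3 in spleen without the filter on low counts (leaving out a library gave 3 to 6), from 6 to between 6 and 7 in thymic γδ T cells and stayed at 5 in DN1-DN3 cells when libraries were left out. For spleen minus thymus leaving out libraries gave 4 to 6 (5 in the main fit) and for thymus minus DN1-DN3 1 to 5 (main 1). In Trgv6-positive cells it gave 1 to 6 in spleen (main 5) and 6 in thymus, and without a Trgv6 UMI 6 and 5 to 6. Trgv6-positive against other cells gave 5 to 6 in splenic WT, 2 to 4 in thymic WT and 6 in thymic KO-labelled libraries, and 0 in splenic KO-labelled ones, where dropping the filter gave 1. The added interaction in Trgv6-positive cells gave 3 to 4 (main 4). With the pool as a replicate block, the paired fit gave 6 of 7 in spleen and 2 for thymus minus DN1-DN3, and it moved no other count by over 1.5 times. The signs that changed, all on leaving out a library, belonged to Il12rb2 in DN1-DN3 cells (range −0.031 to 0.23) and in the Trgv6 interaction (−0.22 to 1.63), to Il1r1 for spleen minus thymus (−0.40 to 0.33) and thymus minus DN1-DN3 (−0.14 to 1.67), to Il12rb1 for thymus minus DN1-DN3 (−0.54 to 0.48), and to Il18r1 for thymus minus DN1-DN3 (−0.50 to 1.14). The cause was not tested. Il1rl1 aside, shares of cells kept 5 higher genes in each compartment at every thinning depth, with no such count over all genes to set beside it. Leaving out B-type cells kept each count of called genes within 1.5 times. Il1rl1, at 2 to 47 UMIs a library, was called without the second splenic WT library in spleen (−2.68), in thymic γδ T cells (1.94) and for spleen minus thymus (−4.62), without the first splenic WT library in thymic γδ T cells (1.93), and with the block in cells without a Trgv6 UMI in thymus (2.40) and for spleen minus thymus (−3.37).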
